A study of Mus musculus with 3 samples.

Results

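Border-associated macrophages (BAMs) with low MHC class II were chosen by a rule on measured counts in the 3 brain libraries. A barcode was a member when its unique molecular identifiers (UMIs, counted transcript molecules) for Mrc1, Pf4, Ms4a7 and F13a1 summed to at least 5 and those for H2-Aa, H2-Ab1 and H2-Eb1 summed to under 10. The rule found 196 members among 14070 kept cells, which had over 200 and under 8000 genes and at most 10% mitochondrial UMIs. The Control library gave 50 members of 3412 cells, hCD33M 59 of 5046 and hCD33m 87 of 5612. The members were thus selected on the measured UMIs of these 7 genes, whose levels are given as a description and were not tested.

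The libraries came from brain cells of mice aged 8 weeks, profiled on the 10x Chromium 3' platform, with 1 library per genotype. Control mice were wild type males; hCD33M males carried the long isoform and hCD33m females the short isoform of human CD33, a sialic acid-binding inhibitory receptor of myeloid cells. Per the study's methods, Cx3cr1-Cre switched on each transgene from a floxed stop at Rosa26, the hCD33m line came from mouse embryonic stem cells transfected with the cDNA, and the cells of a genotype were pooled before sorting on CD11b, CD45 and Cx3cr1. Genotype and sex cannot be told apart for hCD33m, no value has a replicate, and the sort sets which macrophages could enter a library. How many mice each library held is not stated in the labels or methods.

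BAMs live at the borders of the brain, in the meninges, the spaces around vessels and the choroid plexus, whereas microglia live in the tissue itself. They take up proteins, lipids and particles through scavenger and lectin receptors, clear hemoglobin and iron, and release chemokines and growth factors. They are commonly divided into cells with high MHC class II, which present peptides to CD4 T cells, and cells with low MHC class II, which often carry the hyaluronan receptor Lyve1 and the folate receptor Folr2.

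Promoters of 3 genes that define the members are shown because PU.1, the factor that macrophages share, binds purine-rich boxes with GAGGAA at their heart. Each run holds the 250 bases before a start site, read 5′ to 3′ on the gene's own strand, from RefSeq on GRCm38.p6. GAGGAA on that strand, or TTCCTC where the box lies on the other strand, is in capitals. Mrc1, the mannose receptor, lies on the plus strand (chr2:14229164-14229413), F13a1, a subunit of clotting factor XIII, on the minus strand (chr13:37050245-37050494) and Pf4, the chemokine platelet factor 4, on the plus strand (chr5:90772185-90772434).
Mrc1: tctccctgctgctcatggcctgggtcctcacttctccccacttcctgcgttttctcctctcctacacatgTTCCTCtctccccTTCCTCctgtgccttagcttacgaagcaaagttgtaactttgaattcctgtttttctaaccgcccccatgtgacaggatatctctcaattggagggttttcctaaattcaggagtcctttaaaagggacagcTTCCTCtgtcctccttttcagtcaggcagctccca
F13a1: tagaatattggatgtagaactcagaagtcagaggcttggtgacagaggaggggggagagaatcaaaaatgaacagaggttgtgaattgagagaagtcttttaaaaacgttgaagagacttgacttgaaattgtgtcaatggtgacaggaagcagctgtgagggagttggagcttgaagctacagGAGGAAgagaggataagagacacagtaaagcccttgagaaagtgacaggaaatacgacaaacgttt
Pf4: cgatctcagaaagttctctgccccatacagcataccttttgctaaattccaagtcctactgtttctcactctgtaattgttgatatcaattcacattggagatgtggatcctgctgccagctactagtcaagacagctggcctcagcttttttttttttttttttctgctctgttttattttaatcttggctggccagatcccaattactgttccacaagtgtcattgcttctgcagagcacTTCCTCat
Mrc1 held 3 copies and F13a1 and Pf4 1 each. The second F13a1 start and both Ms4a7 starts held 0. A copy on either strand was present at 7639 of 32851 start sites over all genes, or 23.3%, and at 33 of 107 start sites, or 30.8%, of the genes that were at least 4-fold higher in BAM-only members, defined below, than in microglia. These are matches of letters, not measured binding.

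Members were 1.47% of the kept cells in Control, with an exact 95% interval by the Clopper-Pearson method from 1.09% up to 1.93%. The share was 1.17% in hCD33M (0.891% up to 1.51%) and 1.55% in hCD33m (1.24% up to 1.91%). The 3 intervals overlap, and they cover counting error only. Of the members, 145 held 0 MHC class II UMIs and 9 held 5 to 9; just outside the limit, 7 barcodes held 10 to 14. At the other limit, 3 members held exactly 5 marker UMIs, while 17 barcodes with 4 fell just outside. Under the same marker rule 110 barcodes were MHC class II high, with 31 in Control, 39 in hCD33M and 40 in hCD33m. No member shared its barcode with another library, and the members summed to 708487, 642278 and 1037207 UMIs in Control, hCD33M and hCD33m.

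**Figure D1:**
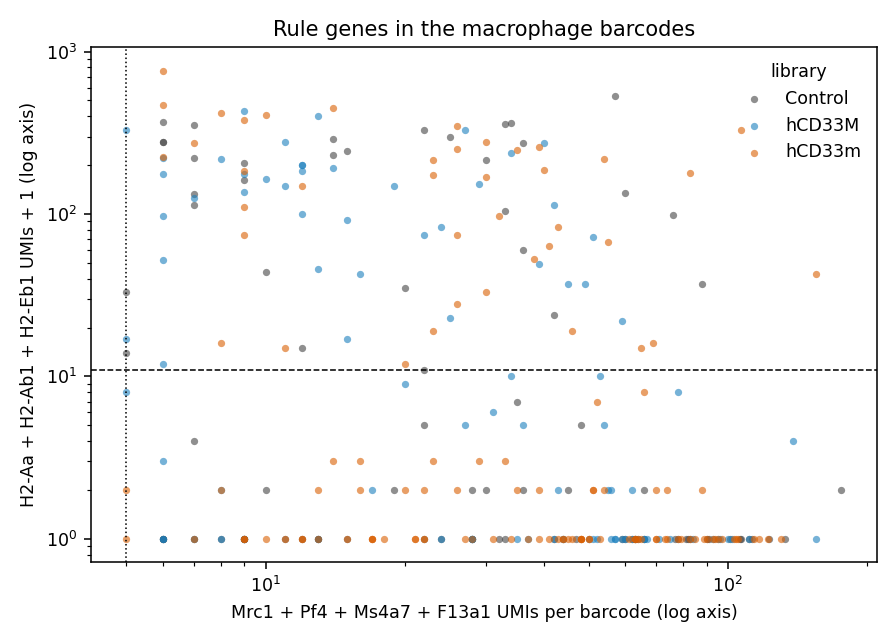
Each point is 1 of the 306 barcodes with at least 5 macrophage marker UMIs, coloured by library; the x axis gives the summed Mrc1, Pf4, Ms4a7 and F13a1 UMIs per barcode and the y axis the summed H2-Aa, H2-Ab1 and H2-Eb1 UMIs plus 1, both on log axes, with the limits dotted and dashed. The 196 members lie under the dashed line, 145 of them at 0 MHC class II UMIs.

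The label was checked against marker lists, and the members were found to be mixed. The BAM list of 13 genes summed to 7877 to 9949 CPM, UMIs scaled to a library's summed total for the class, over the members of a library, against 1421 to 1555 CPM in microglia, the 13312 kept cells with at least 0.15% P2ry12 and Tmem119 UMIs and under 5 marker UMIs. The microglial list of 10 genes was also high in the members, at 13085 to 18323 CPM, against 26449 to 28740 CPM in microglia. In 110 of the 196 members, or 56.1% (interval 48.9 to 63.2), P2ry12 and Tmem119 reached the microglial limit of 0.15% of UMIs. These were 32 of 50 members in Control (64.0%), 26 of 59 in hCD33M (44.1%) and 52 of 87 in hCD33m (59.8%).

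Members with and without this microglial level stood apart, with 67 members under 0.05%, 76 at 0.3% or more and 1 between 0.1% and 0.15%. The 110 barcodes with it held a median of 14773.5 UMIs and 4391.5 genes, against 5284 UMIs and 1992 genes in the 73 members defined next, and 5191.5 UMIs in microglia. Their median BAM list count was 119 UMIs per barcode against 103 in those 73, and their median microglial list count was 273 UMIs against 144 in microglia. The median of each list in these barcodes was thus at least that of the class it marks. Whether each holds 2 cells was not tested, and no doublets had been removed.

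A smaller set of members carried monocyte transcripts. In 14 members, 4 in Control, 8 in hCD33M and 2 in hCD33m, the monocyte list (Ly6c2, Plac8, Chil3, S100a4, Ccr2, Ace and Vcan) reached at least 10 UMIs, and F13a1, which monocytes also express, was the only rule marker in 9 of them. The members under both limits are called BAM-only members here: 73 cells, 14 in Control, 26 in hCD33M and 33 in hCD33m, with under 0.15% P2ry12 and Tmem119 and under 10 monocyte UMIs. Of the microglial list only P2ry12 and Tmem119 were limited. The whole list had a median of 19 UMIs in these cells but reached 157, against a median of 144 in microglia, so the name does not exclude microglial RNA. They were defined after the data were seen. They amounted to 0.410%, 0.515% and 0.588% of the kept cells in Control, hCD33M and hCD33m, and summed to 83004, 154637 and 187274 UMIs.

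In BAM-only members the BAM list summed to 18059 to 20655 CPM and the microglial list to 4277 to 4998 CPM, and all 7 monocyte markers were at 0. These markers were limited by the choice of the set. In the full member set, S100a8 and S100a9, which define neutrophils, and Cd3d of T cells were at 0. Cd3d was the only 1 of 5 T and NK cell genes in the data, and was at most 0.0668 CPM in microglia. The neutrophil list summed to 182 to 202 CPM, nearly all of it Csf3r, against 252 to 264 CPM in microglia. The dendritic cell list was raised, at 386, 608 and 139 CPM in BAM-only members of Control, hCD33M and hCD33m, against 2.56 to 4.09 CPM in microglia. Most of it was Cd209a, at 373, 601 and 123 CPM, and Flt3, Xcr1 and Clec9a were at 0 in these cells. The values below are therefore given for the BAM-only members, and for all members where the 2 sets part.

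**Figure D2:**
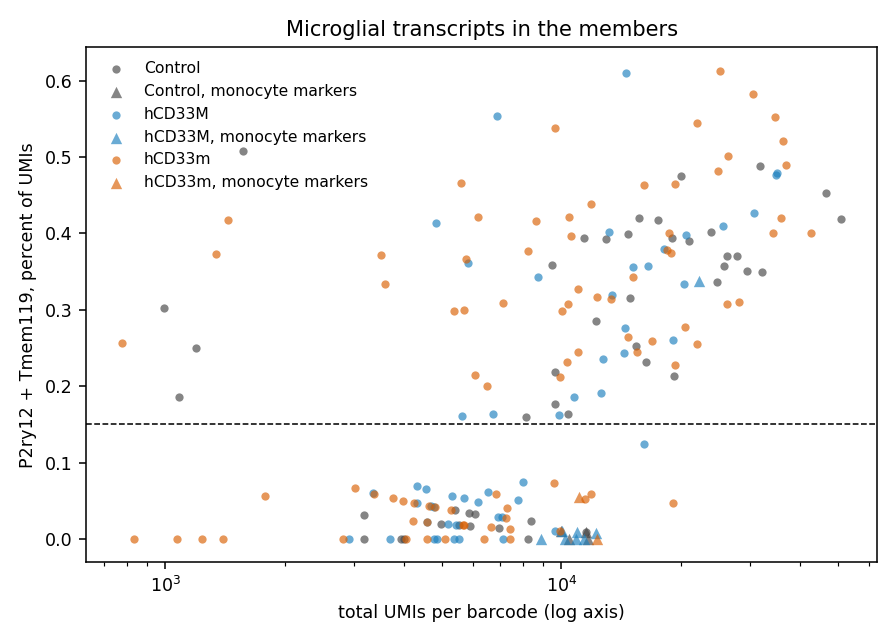
Each point is 1 member, with its total UMIs on the log x axis and the percent of its UMIs from P2ry12 and Tmem119 on the y axis; colours are libraries, triangles are the 14 members with monocyte markers and the dashed line is the 0.15% limit. The 110 members above the line lie mostly at higher UMI totals than those below it.

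Scavenger and lectin receptors set the members furthest from microglia. Across all genes with at least 50 CPM in the higher class, 62 of 3682, or 1.68%, were at least 4-fold higher in all members than in microglia in every library and 0 of 3682, 0%, were 4-fold lower. For BAM-only members 121 of 3739 genes were 4-fold higher, or 3.24%, and 91 were 4-fold lower, or 2.43%. Of the 20 scavenger and endocytic receptor genes listed, 17 reached 50 CPM, and 16 of these, with Mrc1 of the rule, were 4-fold higher in BAM-only members. Genes that reached 50 CPM only through the higher class had to differ, and the classes were cut on expression, so these counts describe the classes.

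Mrc1 stood at 3265 CPM in the BAM-only members of Control, 4029 in hCD33M and 3247 in hCD33m, against 6.61, 7.27 and 10.9 CPM in microglia. Pf4 stood at 4060, 4003 and 4512 CPM in the same order, against 1.13, 1.12 and 1.67 CPM. F13a1 was at 651, 1002 and 886 CPM, against 0.512 to 0.635 CPM in microglia. Each was higher than in microglia in every library, for genes that entered the sum on which both classes were chosen. Over all members the levels were lower, at 1324, 1825 and 1506 CPM for Mrc1 and 1468, 1520 and 1621 CPM for Pf4, in sums that include the barcodes with microglial transcripts.

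Dab2, an endocytic adaptor given as a marker of the class but not used in the rule, was at 1663, 2102 and 1431 CPM in BAM-only members of Control, hCD33M and hCD33m, against 16.1, 13.7 and 18.1 CPM in microglia. Cd163, the receptor for hemoglobin bound to haptoglobin, was at 494, 550 and 566 CPM against 0.307, 0.15 and 0.401 CPM. Lyve1 was at 313, 511 and 764 CPM against 0.0375 to 0.205 CPM. All 3 genes were far above microglia in every library, and Lyve1 alone differed by over 2-fold among the libraries.

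The CD209 family and other C-type lectins, which bind sugars on microbes and host proteins, were among the highest genes by fold. Taking the library with the smallest ratio, Cd209g was 2823-fold, Cd209f 1904-fold, Cd163 1411-fold, Clec10a 1318-fold, Clec4n 919-fold and Colec12 919-fold higher in BAM-only members than in microglia. Ratios of this size rest on a handful of microglial UMIs, for Cd209g on 1, 0 and 2 UMIs in Control, hCD33M and hCD33m. Cd209f itself stood at 928, 1125 and 764 CPM in BAM-only members. The same ranking also held Pla2g2d, a secreted phospholipase, Chp2, Ifi203, Cd38, an NAD-consuming ectoenzyme, Rgs18, Cbr2, a carbonyl reductase, and Cd93. Fcna, a ficolin of the lectin complement pathway that is also on the receptor list, was there too. All of these were at 589-fold to 1238-fold.

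Lrp1, a large endocytic receptor for lipoproteins, was the exception among the receptors, at 96.4, 155 and 96.1 CPM in BAM-only members against 465, 473 and 415 CPM in microglia. With each cell thinned to 2000 UMIs, Mrc1 was seen in 89.7% of BAM-only members against 1.39% of microglia, Pf4 in 92.6% against 0.258%, Cd163 in 57.4% against 0.0644%, Lyve1 in 45.6% against 0.0322% and Cd209f in 42.6% against 0.0483%. Median depths before thinning were 5284 UMIs in BAM-only members and 5191.5 in microglia, and without thinning the share with a Lyve1 UMI was 57.5% against 0.0676%. The shares for Mrc1 and Pf4 follow from the rule. For Cd163, Lyve1 and Cd209f, which the rule did not use, the microglial shares lay far under the members' shares. The microglia had been chosen with under 5 marker UMIs, and background from free RNA was not measured.

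**Figure D3:**
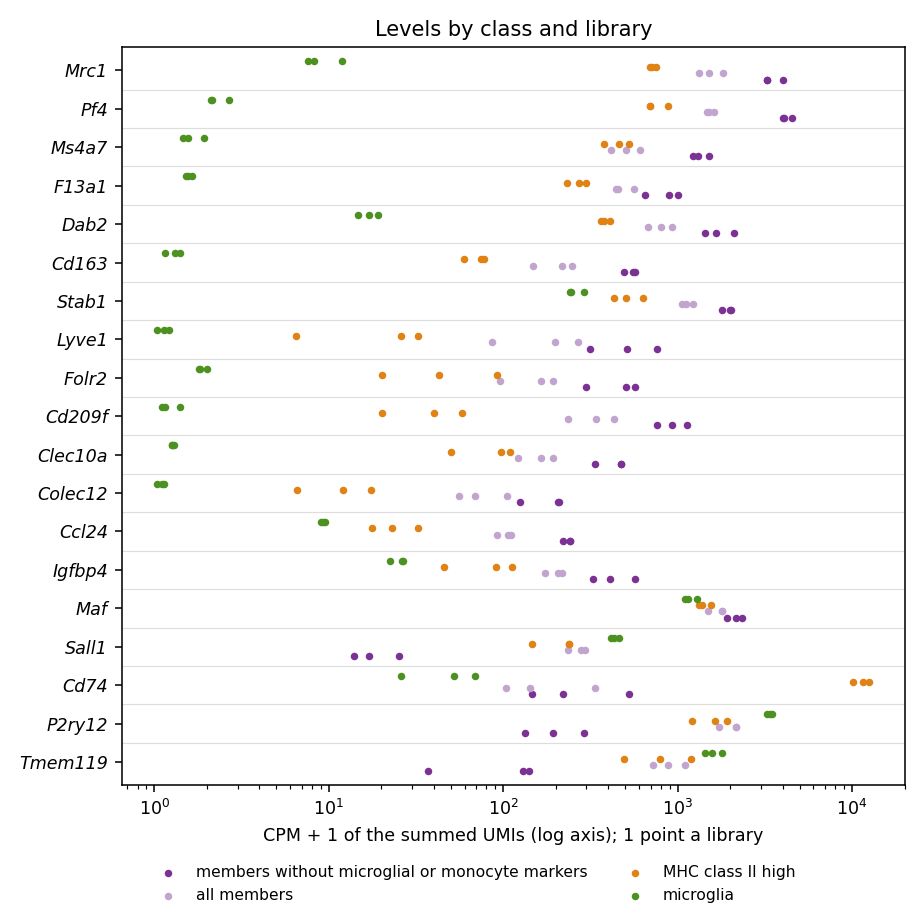
Points give the CPM plus 1 of the summed UMIs of 19 genes on a log axis, 1 point per library, in BAM-only members (labelled as members without microglial or monocyte markers), all members, all MHC class II high macrophages and microglia. The BAM-only members lie furthest right for Mrc1 through Igfbp4, the MHC class II high macrophages for Cd74 and the microglia for P2ry12 and Tmem119.

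Of 20 chemokines and cytokines listed, 11 reached 50 CPM in the comparison with microglia, and Pf4, Ccl24, Ccl7 and Ccl8 were 4-fold higher in BAM-only members, against 3.24% of all genes. Pf4 was a gene of the rule. Ccl24, which draws eosinophils through Ccr3, was at 241, 220 and 240 CPM in Control, hCD33M and hCD33m, against 8.06 to 8.45 CPM in microglia. Ccl8, a ligand of chemokine receptors on monocytes and T cells, was at 169, 362 and 320 CPM. Ccl12 was at 1638, 446 and 454 CPM, but in Control its 136 UMIs came from 5 of the 14 cells. Il1b, the inflammatory cytokine, was at 0, 0 and 5.34 CPM.

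Of 18 growth and clotting factor genes, 10 reached 50 CPM and 6 were 4-fold higher in BAM-only members than in microglia, F13a1 of the rule among them. Igf1, insulin-like growth factor 1, was at 325, 304 and 299 CPM against 0.412 to 1.70 CPM. Igfbp4, an IGF-binding protein, was at 325, 407 and 566 CPM, and Gas6, a ligand of the Axl and Mertk receptors, at 904, 1086 and 785 CPM against 132 to 166 CPM. Apoe, the lipid carrier, was at 74864, 64506 and 63944 CPM, so that it took the largest share of these genes, against 424 to 729 CPM in microglia. Igf1 and Apoe thus had levels that varied little between the 3 libraries of BAM-only members.

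Part of the iron and heme list was higher too. Of 13 genes listed, 10 reached 50 CPM and 4 were 4-fold higher in BAM-only members, Cp, Hmox1, Blvrb and Cd163, which is also on the receptor list. Ceruloplasmin, Cp, which oxidises iron for export, stood at 277, 336 and 299 CPM against 1.08 to 1.69 CPM in microglia, and Blvrb, a biliverdin reductase, at 470, 660 and 614 CPM against 73.5 to 79.4 CPM. The ferritin chains that store iron fell short of 4-fold in at least 1 library, with Fth1 at 7662, 7159 and 7225 CPM against 2050 to 2227 CPM and Ftl1 at 5723, 5749 and 6461 CPM against 1437 to 1610 CPM. Among 18 complement and Fc receptor genes, C4b, Cfp and Fcgrt were 4-fold higher, whereas the C1q chain C1qa was at 9734, 9222 and 8560 CPM against 9999, 10001 and 10437 CPM in microglia.

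Fcgrt, the neonatal Fc receptor that recycles IgG, stood at 675, 524 and 689 CPM in BAM-only members against 94.3 to 101 CPM in microglia. Of 17 interferon response genes, 7 reached 50 CPM and Ifitm3, Ifi204, Ifi27l2a and Bst2 were 4-fold higher. Of 16 lipid handling genes, 12 reached 50 CPM, of which Apoe, Pltp, Cd36 and Pla2g7 were 4-fold higher and Abcg1 was 4-fold lower.

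Transcription factors of the microglial program were low. Of 22 factors listed, 14 reached 50 CPM, 0 were 4-fold higher in BAM-only members, and Sall1 and Sall3 were among those 4-fold lower. Sall1, a factor of microglial identity, was at 12.9 to 24.1 CPM over the 3 libraries against 432, 461 and 416 CPM in microglia. Maf, a factor of macrophages, lay the other way, at 1928, 2334 and 2157 CPM against 1149, 1291 and 1103 CPM. Spi1, which encodes PU.1, stood at 349, 317 and 283 CPM against 486, 471 and 446 CPM.

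Homeostatic microglial genes were the other side of the contrast. All 22 listed genes reached 50 CPM, and 16 were 4-fold lower in BAM-only members, but P2ry12 and Tmem119 set the classes and genes that follow them are not independent of that choice. Cst3, cystatin C, was at 13746, 11711 and 11892 CPM against 49611 to 55624 CPM in microglia. Csf1r, the receptor for the survival factor of macrophages, stood closer, at 2036, 2432 and 2275 CPM against 3629 to 3808 CPM. Over all 196 members the 22 genes were lower than in microglia in every library but 0 were 4-fold lower, and their median log2 ratio was -0.76 against -0.10 for all measured genes; for BAM-only members the medians were -2.91 and -0.37.

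A gene that is at 0 in BAM-only members could be called 4-fold lower only where microglia reached 145, 77.6 and 64.1 CPM in Control, hCD33M and hCD33m, so the list of lower genes is limited by depth. The 10 lowest by fold in BAM-only members were Adgrg1, Ecscr, Sparc, Sall1, Nav3, Serpine2, Lag3, Nav2, Tmem119 and Camk2n1, at 28.6-fold to 11.8-fold below microglia in the library with the smallest ratio. Tmem119 was part of the choice. Sparc, a matrix protein of microglia, was 19.5-fold lower.

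Compared with the MHC class II high macrophages, the members were apart in few genes. Over all barcodes of the 2 classes, 10 of 3350 genes, or 0.299%, were at least 2-fold higher in every library and 11, or 0.328%, at least 2-fold lower. With BAM-only barcodes on each side, 73 against 40, 40 of 2777 genes were 2-fold higher (1.44%) and 30 were 2-fold lower (1.08%). Of the lower genes H2-Aa, H2-Ab1 and H2-Eb1 were fixed by the rule. The 40 MHC class II high barcodes comprised 10, 16 and 14 cells in Control, hCD33M and hCD33m, which leaves wide counting intervals. The median log2 ratio of all measured genes was 0.14 in this comparison, and 0.12 over all barcodes.

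Scavenger receptors were higher in the class II low cells. Of the 20 listed, 17 reached 50 CPM and 10 were 2-fold higher in BAM-only members: Cd163, Stab1, Lyve1, Folr2, Colec12, Clec10a, Cd209f, Cd209b, Cd209a and Fcna. Lyve1 was at 313, 511 and 764 CPM in the BAM-only members of Control, hCD33M and hCD33m, against 0, 23.6 and 80.0 CPM in BAM-only class II high cells, where 2 of 40 cells held it. Cd209f was at 928, 1125 and 764 CPM against 136, 165 and 91.4 CPM, and Cd163 at 494, 550 and 566 CPM against 175, 224 and 171 CPM. Folr2 was at 506, 297 and 566 CPM against 0, 130 and 229 CPM. These 4 receptors were higher in the class II low cells of every library, by the smallest margin for Folr2 in hCD33M.

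Mrc1 was 2-fold higher in Control and hCD33M but not in hCD33m, at 3265, 4029 and 3247 CPM against 1107, 1394 and 1886 CPM. The smaller lists held Ccl24, at 241, 220 and 240 CPM against 0, 35.4 and 68.6 CPM, Igfbp4, at 325, 407 and 566 CPM against 77.7, 130 and 160 CPM, and the iron exporter ferroportin, Slc40a1, at 169, 239 and 166 CPM against 0, 59.1 and 34.3 CPM. Fcgrt was at 675, 524 and 689 CPM against 97.1, 248 and 274 CPM. Egfl7, Gm38843, Ehd1 and Ltc4s, an enzyme of leukotriene synthesis, completed the 10 genes highest by fold, with Lyve1, Cd209f, Cd209a, Colec12, Ccl24 and Igfbp4.

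The class II machinery moved with the chains that the rule used. Of its 7 genes, 4 reached 50 CPM and all 4 were 2-fold lower in BAM-only members in every library. Cd74, the invariant chain, was at 145, 524 and 219 CPM in BAM-only members against 23602, 16976 and 18849 CPM in class II high cells. Ciita, the class II transactivator, was at 0, 12.9 and 0 CPM against 136, 94.5 and 91.4 CPM, and H2-DMa, a chain of the peptide-loading complex, at 157, 175 and 187 CPM against 855, 744 and 697 CPM. Class I genes differed less: of 13, 11 reached 50 CPM and 1, H2-Q7, was 2-fold lower. Ccr2, a monocyte receptor, was at 0 in BAM-only members, and at 505, 248 and 206 CPM in class II high cells that had passed the same monocyte limit.

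The BAM-only members varied among themselves in Lyve1. A Lyve1 UMI was found in 42 of the 73 cells, with 7 of 14 in Control, 13 of 26 in hCD33M and 22 of 33 in hCD33m; at 2000 UMIs a cell it was found in 5 of 14, 10 of 26 and 16 of 28. Cells with and without one had similar depth, with medians of 5218.5 and 5502.0 UMIs. The division was made on these cells after the data were seen, and the values that follow are a description.

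Clec10a was at 719, 777 and 647 CPM in the Lyve1 cells of Control, hCD33M and hCD33m, against 42.7, 197 and 165 CPM in cells without a Lyve1 UMI. F13a1 was at 1134, 1403 and 1111 CPM against 277, 640 and 480 CPM, and Folr2 at 463 to 885 CPM against at most 213 CPM. These 3 genes were higher with Lyve1 in every library. Ms4a7, a membrane-spanning protein of the rule, was even between the 2 sets, at 1300, 1676 and 1194 CPM against 1323, 1354 and 1275 CPM.

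Cd74 lay lower in the cells with Lyve1. It was at 27.7, 95.4 and 91.2 CPM in these cells against 235, 911 and 450 CPM without a Lyve1 UMI, although both sets are under the class II limit. It was lower with Lyve1 in every library.

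**Figure D4:**
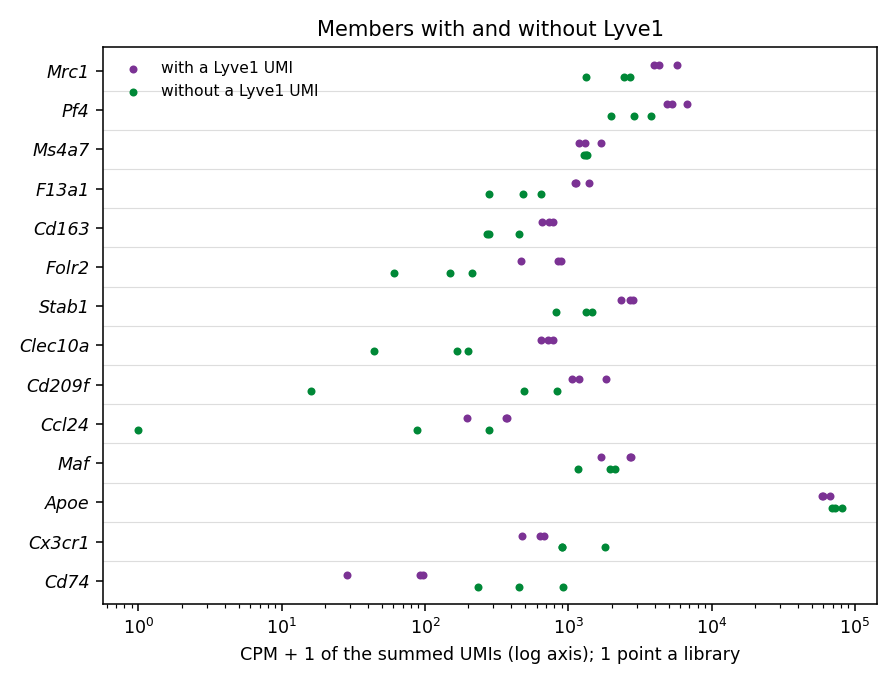
Points give CPM plus 1 of the summed UMIs on a log axis, 1 point per library, for BAM-only members with a Lyve1 UMI (42 cells) and without (31 cells). Folr2, Clec10a and F13a1 lie higher with Lyve1 in every library, Cd74 lies lower, and Ms4a7 overlaps.

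Genotypes were compared within the members as ratios of CPM between 2 libraries, with exact 95% intervals from the counts. They have no replicate check, and the hCD33M and hCD33m ratios to Control share the Control library. A gene was counted where the ratio was at least 1.5-fold and the interval excluded equality. In all members this held for 3.19% of 3949 genes as higher and 2.53% as lower in hCD33m over Control, 4.18% and 3.56% of 3903 in hCD33M over Control and 4.59% and 3.85% of 3900 in hCD33m over hCD33M. In BAM-only members the shares were 3.39% and 4.23%, 2.24% and 3.45%, and 4.12% and 4.52%, in the same order.

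The 4 macrophage markers of the rule chose the members, so their ratios between genotypes are a description and not a call. In BAM-only members F13a1 had a log2 ratio of 0.62 (0.17 to 1.10) for hCD33M over Control. It was at 0.45 (0.00 to 0.92) in hCD33m over Control. Pf4 stood at 4060, 4003 and 4512 CPM and Ms4a7 at 1313, 1507 and 1223 CPM in Control, hCD33M and hCD33m. For Mrc1 the log2 ratio was -0.01 (interval -0.22 to 0.20) for hCD33m over Control and 0.30 (0.10 to 0.51) for hCD33M over Control. Mouse Cd33 itself had 193, 285 and 262 CPM in Control, hCD33M and hCD33m, and its ratio intervals included 0. The human transgenes are not analysed here. Cx3cr1, the fractalkine receptor, whose promoter drives the Cre, was at 1301, 698 and 753 CPM, with log2 ratios to Control of -0.90 (-1.30 to -0.50) for hCD33M and -0.79 (-1.16 to -0.41) for hCD33m. In microglia Cx3cr1 was at 5717, 3372 and 3172 CPM, so that both transgenic libraries lay under Control in each class.

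Among the 19 scavenger and endocytic receptor genes in the files, 2 were counted as higher and 2 as lower in hCD33m over Control in BAM-only members, Lyve1 and Cd209g against Cd209a and Cd209b. For hCD33M over Control 3 were counted as higher, Lyve1, Cd209g and Cd209a, and 1 as lower, Folr2. Over all genes, 3.39% were higher and 4.23% lower in hCD33m over Control. The shares for hCD33M over Control were 2.24% and 3.45%. Lyve1 was at 313 CPM in Control, 511 in hCD33M and 764 in hCD33m, with a log2 ratio of 1.29 (0.68 to 1.95) for hCD33m over Control and 0.71 (0.05 to 1.40) for hCD33M over Control. Cd209a, a CD209 receptor also found on dendritic cells, was at 373, 601 and 123 CPM, with a log2 ratio of -1.60 (-2.45 to -0.78) for hCD33m over Control and 0.69 (0.09 to 1.32) for hCD33M over Control. Cd209g was at 145, 336 and 379 CPM, with log2 ratios to Control of 1.22 (0.29 to 2.26) for hCD33M and 1.39 (0.50 to 2.41) for hCD33m, on 12 UMIs in 3 Control cells. Cd209b was at 169, 77.6 and 69.4 CPM, on 12 to 14 UMIs a library. Folr2 was at 506, 297 and 566 CPM, with a log2 ratio of -0.77 (-1.40 to -0.13) for hCD33M over Control, whereas over all members it was counted as higher in hCD33M. These receptors thus did not share 1 direction between genotypes, and the 14 Control cells are the base of each ratio to Control.

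The early response list of 23 genes, wider than the 9 that the study names for its cluster 0 of microglia, did not have 1 direction in the members. Over all members its UMIs summed to 5169 CPM in Control, 4908 in hCD33M and 6967 in hCD33m, and of 18 genes with 50 CPM, 8 were higher and 1 lower in hCD33m over Control, against 3.19% and 2.53% of all genes. In BAM-only members the sums were 5241, 3822 and 4619 CPM, 2 genes were higher, Klf2 and Zfp36l1, and 3 were lower, Jund, Klf6 and Ier3. This stands against 3.39% and 4.23% of all genes. In the 110 members with microglial transcripts the sums were 5287 CPM in Control and 7595 in hCD33m, and in microglia 5980 and 8007 CPM. Compared with hCD33M, the sum was higher in hCD33m in BAM-only members as well, by a log2 ratio of 0.27 (0.12 to 0.43), with Klf2, Klf4 and Dusp1 counted as higher and Btg1 and Ier3 as lower. Jund, Klf6 and Ier3 are not among the 9 genes that the study names. Of those 9, 5 were counted as higher and 0 as lower in hCD33m over Control over all members. In BAM-only members 2 of the 9 were higher, Klf2 and Zfp36l1, and 0 lower. There the 9 genes summed to 3036 CPM in Control and 3070 in hCD33m, a log2 ratio of 0.02 (-0.20 to 0.24). The part of the microglial transcripts in these values was not tested.

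The immediate early factor Egr1 was at 133, 25.9 and 74.8 CPM in BAM-only members of Control, hCD33M and hCD33m, and its log2 ratio of hCD33m to Control was -0.83 (-2.07 to 0.46), against 1.2 in members with microglial transcripts. Fos was at 253, 226 and 294 CPM, a log2 ratio of 0.22 (-0.53 to 1.01). Klf2, a Kruppel-like factor, was at 108, 175 and 379 CPM, a ratio of 1.81 (0.80 to 2.99), and Jund was at 675, 323 and 304 CPM, a ratio of -1.15 (-1.71 to -0.59). With 9 Klf2 UMIs in 3 Control cells, the Control level of Klf2 rests on few molecules. The difference between BAM-only members and microglia in these ratios was not tested.

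**Figure D5:**
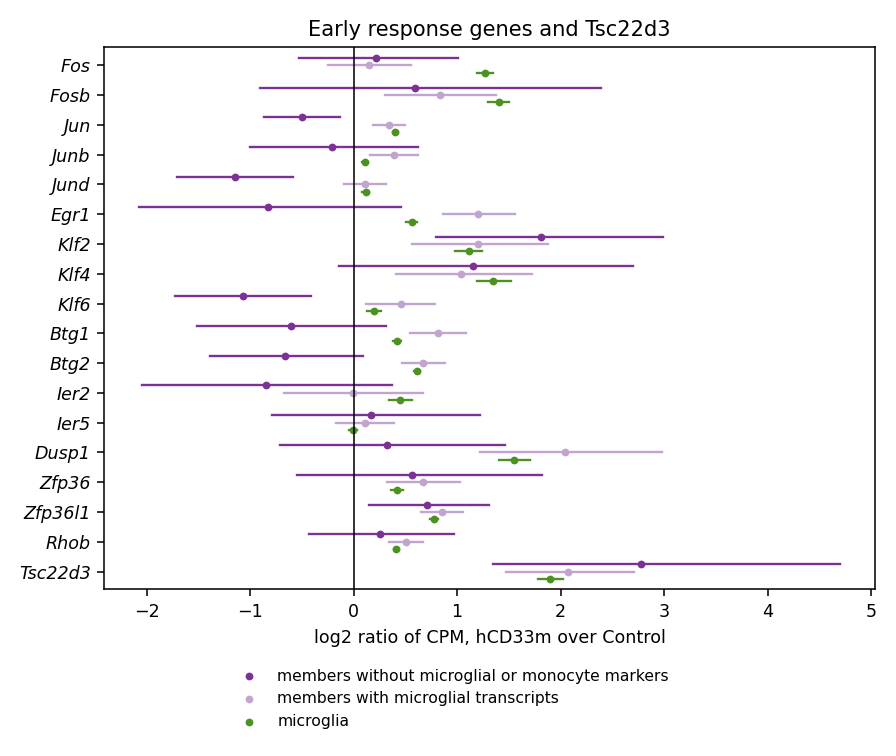
Points are log2 ratios of CPM, hCD33m over Control, with bars for the exact 95% counting interval, for 17 early response genes and Tsc22d3 in BAM-only members, in members with microglial transcripts and in microglia; the x axis is the log2 ratio and the vertical line marks 0. BAM-only members lie on either side of 0, from -1.15 for Jund to 1.81 for Klf2 among early response genes, with Tsc22d3 at 2.78.

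Tsc22d3, which encodes the glucocorticoid-induced leucine zipper, was higher in hCD33m in every set of members. It was at 48.2, 97.0 and 331 CPM in BAM-only members, with 4, 15 and 62 UMIs in 4, 11 and 25 cells of Control, hCD33M and hCD33m. The log2 ratio was 2.78 (1.35 to 4.70) for hCD33m over Control, 1.77 (0.94 to 2.69) for hCD33m over hCD33M and 1.01 (-0.64 to 3.06) for hCD33M over Control. Without the cell that held most of its UMIs in each library, the ratio of hCD33m to Control was 2.97. The glucocorticoid list as a sum was higher too, with a log2 ratio of 0.70 (0.33 to 1.09) for hCD33m over Control, but Tsc22d3 was the 1 gene of its 4 with 50 CPM that was counted as higher.

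Several genes with the largest genotype ratios in the members had many of their UMIs in 1 cell or were on the monocyte list. In hCD33m BAM-only members 61 of 162 Cd52 UMIs and 40 of 79 Olfml3 UMIs lay in 1 cell, and in Control all 30 Apoc1 UMIs lay in 1 cell. Over all members Ccl3 had 118 UMIs in hCD33m, 95 of them in 1 cell, and its log2 ratio to hCD33M changed from 1.73 to -0.20 without the top Ccl3 cell of each library. Fn1, Ccr2 and S100a4 were lower in hCD33m than in Control over all members, with log2 ratios of -2.89, -2.47 and -1.96, and Chil3, Ly6c2 and Plac8 were higher in hCD33M, at 3.05, 2.35 and 1.98. Ccr2, S100a4, Chil3, Ly6c2 and Plac8 are on the monocyte list, and monocyte-marker members numbered 4 in Control, 8 in hCD33M and 2 in hCD33m. In BAM-only members, which leave out these and the microglial barcodes, all 7 genes of the monocyte list were at 0. Ratios of Ccr2 without the monocyte-marker members are given in the closing section. The cause of the ratios was not tested.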

How the data were processed

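Single-cell 3′ libraries of sorted brain cells were analysed, 1 each for Control, hCD33M and hCD33m. The deposited values are raw UMI counts per gene and barcode; the authors aligned reads to mm10 with Cell Ranger and used Seurat, per the methods and labels. The deposited files hold genes seen in at least 3 cells. No column was left unmapped. The members and gene lists were chosen with earlier results of these data known.

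Barcodes were kept with over 200 and under 8000 genes and at most 10% mitochondrial UMIs, and doublets were not called or removed. UMIs were summed per class and library and scaled to CPM. Ratios carry exact conditional binomial intervals and shares Clopper-Pearson intervals, at 95%, for counting error only; a gene at 0 was set to a floor of 3 counts for ratios. Genes with at least 50 CPM in the higher class were named by rank of the library nearest a ratio of 1: 20 highest and 10 lowest against microglia, 10 and 10 against MHC class II high cells, and 6 and 6 between genotypes by the interval bound nearest 0; genes of the member rule, the markers and the fixed lists were described too. The BAM-only set and the split by Lyve1 were added after seeing the data. With 1 library per genotype no test was run. Alternatives were other limits, filters, depths, pooling and scalings. The tools were scipy 1.17.1, pandas 2.3.3 and numpy 2.4.6 in Python 3.11.15, and edgeR 4.0.16 in R 4.3.3, for scaling factors only; the scripts were tested on simulated data. Results for some genes are not reported here.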

Additional observations from a re-analysis of the deposited data

Results flagged for a closer look

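Ratios of 6 genes pointed one way in BAM-only members and the other way in microglia of the same libraries, each with a counting interval that excluded equality. Only genes on the fixed lists were screened. They needed 50 CPM and at least 1.5-fold in BAM-only members, and a smaller fold limit held in microglia. How many of all genes pass this screen was not counted, so the 6 have no share beside them. The difference between the classes was not tested, and each has 1 library per genotype behind it. For hCD33m over Control the log2 ratio was -1.91 in BAM-only members and 0.37 in microglia for Ccl2, 1.45 and -0.45 for Ccl6 and -2.94 and 0.50 for Isg15. For hCD33M over Control it was -3.48 and 0.38 for Ifit3, -0.83 and 0.32 for Ifitm3 and -3.40 and 0.45 for Isg15. These ratios rest on few molecules: Isg15 had 17, 3 and 5 UMIs in the BAM-only members of Control, hCD33M and hCD33m, and Ifit3 12, 2 and 5, so that the intervals for hCD33M over Control ran from -5.81 to -1.61 and from -6.68 to -1.32. For hCD33m over hCD33M it was -0.75 and 0.32 for Btg1 and 1.98 and -0.33 for Ccl6. The Btg1 interval in BAM-only members, -1.51 to -0.02, came close to 0, and the ratio was -0.69 (-1.52 to 0.12) without the top cell of each library.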

How the results depend on the processing

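No paired analysis was possible because each genotype has 1 library. The share of members was 0.528%, 0.654% and 0.624% in Control, hCD33M and hCD33m without members holding microglial P2ry12 and Tmem119 and 0.410%, 0.515% and 0.588% without monocyte-marker members too; a minimum of 3 UMIs gave 1.53% in hCD33M and 2.07% in hCD33m. The 62 genes 4-fold higher than in microglia became 126 without microglial members, 121 without monocyte-marker members too, 106 at 20 CPM and 29 at 100 CPM; the 0 lower genes became 129 and 91 in the first 2 of these.

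Against MHC class II high cells the 10 higher and 11 lower genes became 42 and 17 without microglial members, 40 and 30 without monocyte-marker members too, 33 and 20 with the mean of cells, 36 and 20 at 2000 UMIs, and 23 and 23 at 20 CPM; the higher count was 19 without the top 5% of members by UMIs and 2 at 100 CPM.

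The early response medians are given without a CPM minimum; at 50 CPM they were 0.51, -0.05 and 0.52. That of hCD33m over Control in all members, 0.34, was 0.28 and 0.45 at minima of 3 and 10 UMIs, 0.46 with limits as shares, 0.47 without the top 5%, 0.42 with the mean of cells, 0.47 at 2000 UMIs, 0.48 and 0.57 at 20 and 100 CPM, but -0.15 without microglial members and 0.00 without monocyte-marker members too. For hCD33M over Control, 0.09, it was -0.02 at 3 UMIs, 0.20 with a strict filter, -0.13 without microglial members, -0.02 without monocyte-marker members, -0.72 without either, and 0.00 and -0.05 at 20 and 100 CPM. For hCD33m over hCD33M, 0.40, it was 0.30, 0.01, 0.49 and 0.25 in the strict filter and those 3 removals, 0.14 with the mean of cells, 0.49 at 2000 UMIs and 0.56 at 100 CPM.

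Among alternative values for named genes, 584 stayed within the counting interval, 115 left it without a reversal, and 9 reversed. Egr1, hCD33m over Control, became -0.39 without microglial members and -0.83 in BAM-only members. Folr2, hCD33M over Control, became -0.72 and -0.77. Ccr2 became 1.56 for hCD33m over Control and 1.28 for hCD33m over hCD33M without monocyte-marker members. No member left held over 1 UMI of the whole monocyte list in Control or over 3 in hCD33m. Both ratios thus rest on few molecules. For hCD33M over Control Ccr2 became -0.15 at 10 UMIs, -0.16 with limits as shares and -0.27 without microglial members. The cause was not tested.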
